A study of Mus musculus with 37 samples.

Results

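Cortical astrocytes from the hemisphere opposite a brain injury were compared between mice that developed post-traumatic epilepsy (PTE+) and injured mice that did not (PTE−). Members were all libraries labelled contralateral PTE+ (4) or contralateral PTE− (9), which are 13 of the 37 libraries of the study, and the values compared were TPM, the transcript abundances that RSEM adjusts for gene length and scales to the same total in every library. Of 21975 gene identifiers, 10423 averaged more than 5 TPM in PTE+ or in PTE− and were tested. Both groups carried the same surgery: wild-type males, named CD1 in the methods and CD31 in the labels, received a severe controlled cortical impact (CCI) over the right parietal cortex, carried recording electrodes, and were sampled 4 months after injury. PTE status came from continuous EEG and video recording, and 5 sham mice, with craniectomy and electrodes but no impact, gave contralateral libraries that are used here for reference levels. Astrocytes were pulled from dissociated cortex with magnetic beads against the surface antigen ACSA-2, so a library holds whatever cells the beads kept. Mice are named below as in the labels. The PTE+ libraries came from mice 8_10, 8_17, 9_17 and 9_18 and are always given in that order, and the meaning of the prefix 8 or 9 is not stated.

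Astrocytes clear glutamate and potassium from the extracellular space, supply neurons with metabolites and ensheath blood vessels with their endfeet. In the contralateral cortex they were not struck directly, but they lie in tissue that is connected through the corpus callosum to the lesion and can be reached by generalized seizures. The question put to these libraries was which astrocyte transcripts separate mice with seizures from mice without them, away from the lesion.

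The 13 libraries carried astrocyte transcripts at high level. The summed TPM of 16 astrocyte markers lay between 22290 and 26970 in the PTE+ libraries and between 21930 and 29650 in the PTE− libraries. None of the 16 was differentially expressed at the thresholds given below, which 2.79% of all tested genes passed. Of the 16 markers 4 had a log2 fold change above 0, against 61.6% of all tested genes, and their median log2 fold change was −0.09. Transcripts of other cell types were present in every group. The summed level of 24 endothelial markers ranged from 802.1 to 3972 TPM over the 13 libraries, that of 14 microglial markers from 199.2 to 456.8 TPM, that of 12 markers of mature oligodendrocytes from 864.0 to 3778 TPM, and that of the neuronal markers from 58.5 to 686.3 TPM. No cell type list was absent, although single defining genes were low: Cdh5 (VE-cadherin) averaged 3.72 TPM in PTE+ and 1.58 TPM in PTE−, and the macrophage receptor Mrc1 averaged 0.993 and 0.562 TPM. One library stood apart. The median gene of PTE+ mouse 9_17 had 5.04 TPM, against 2.58 to 3.95 TPM in the other 12. Values without this mouse are therefore given for many of the genes below and for the endothelial list.

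**Figure D1:**
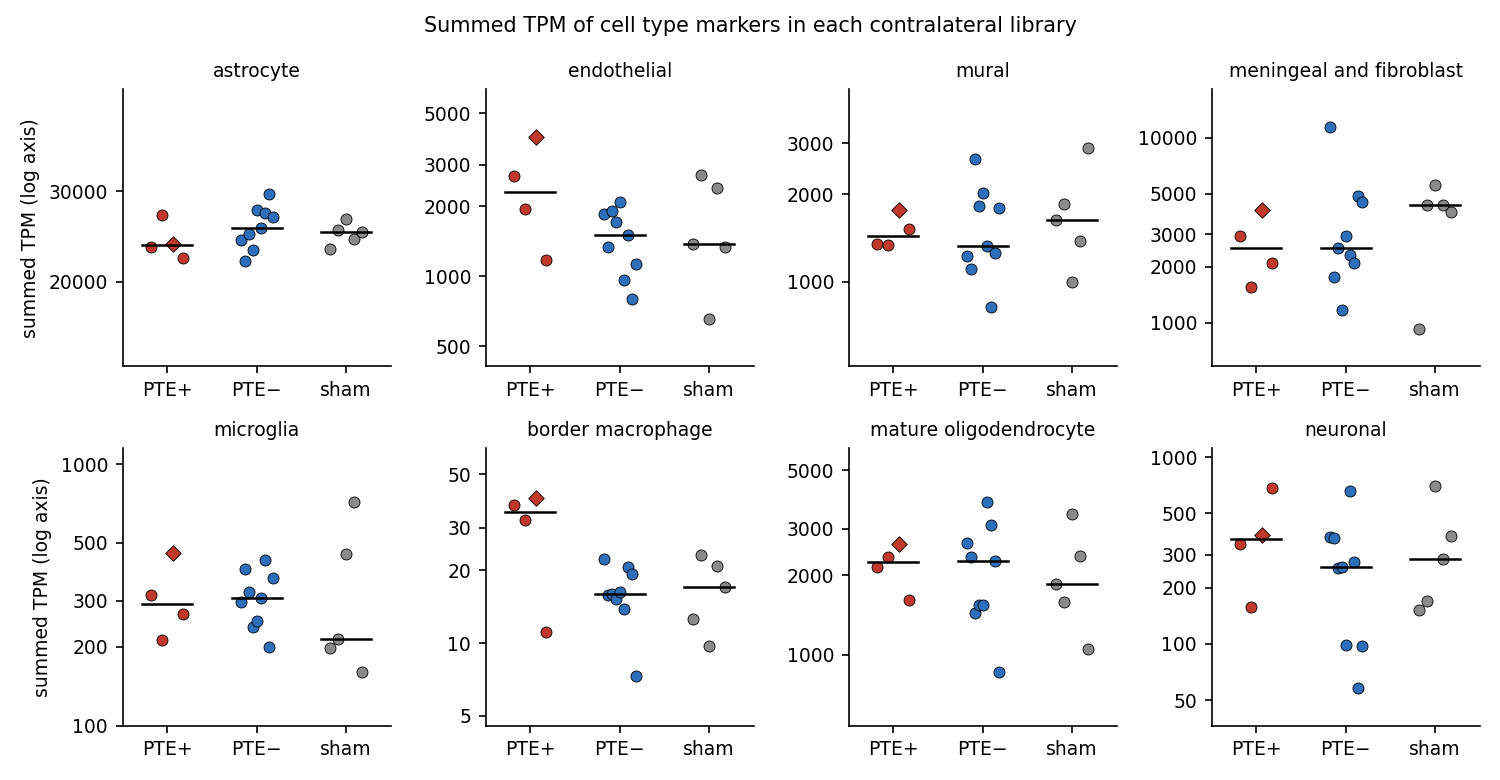
Summed TPM of the markers of 8 cell types in each contralateral library (log axis, 1 point per mouse, horizontal lines at group medians, diamond for mouse 9_17). Astrocyte sums overlap in all 3 groups, while the endothelial sum reached 3972 TPM in mouse 9_17 and the border macrophage sum was 32.4 to 40.1 TPM in 3 PTE+ mice against 7.29 to 22.3 TPM in PTE− mice.

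Differentially expressed genes (DEGs) were defined as in the methods of the study, here with limma on log2(TPM + 1), where p had to be below 0.05 without adjustment and the fold 1.2 or more. Some DEGs passed the TPM filter through PTE+ alone or through PTE− alone, the group where they were high. The shares of DEGs given below include such genes. Between PTE+ and PTE− 291 genes were DEGs, 2.79% of those tested, with 203 higher (1.95%) and 88 lower (0.844%) in PTE+. The p threshold alone was passed by 303 genes, 2.91% of those tested, and no gene passed a Benjamini-Hochberg adjusted p of 0.05 in limma, where the smallest adjusted p was 0.603. In simulated data 5.21% of unchanged genes passed the p threshold, so the number of DEGs is not by itself a sign of a difference. The direction of the DEGs depended on scaling. The log2 fold change was above 0 for 61.6% of all tested genes and its median was 0.05, a shift that median centring of each library removes. With centring 361 genes were DEGs, of which 148 (1.42% of genes tested) were higher in PTE+, a share of 41.0% of the DEGs instead of 69.8%, and quantile normalization gave 386 DEGs with 32.4% higher. Of the 203 higher DEGs 131 remained DEGs after centring, and of the 88 lower DEGs all 88 did.

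Mouse 9_17 had a large part in the higher DEGs. Without it 201 genes were DEGs (1.96% of those tested), 60 higher and 141 lower, and 101 of them were among the original 291 in the same direction (47 higher, 54 lower). Without PTE+ mouse 9_18 there were 489 DEGs, and without PTE− mouse 9_13 there were 485, in both cases mostly higher in PTE+ (81.6% and 85.2%). A core of 40 DEGs, 22 higher and 18 lower, held when each of the 13 libraries was left out and under all 3 scalings. It included Pnpla3, Penk, Lingo1, Rps18, Scube1, Nr1h2 and Ica1 among the higher genes and Mgme1, Fam163a, Cntnap2, Ppara, Marc2, Plin3, Ttc38 and Cd38 among the lower.

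**Figure D2:**
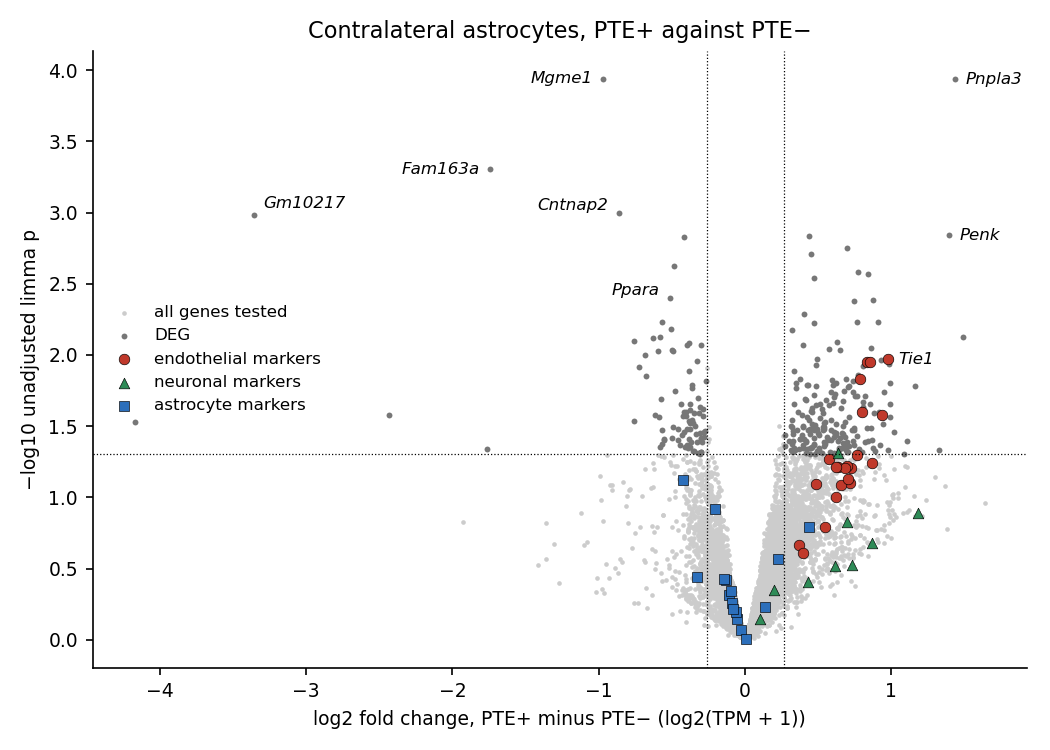
Limma log2 fold change (PTE+ minus PTE−, horizontal axis) against −log10 of the unadjusted p (vertical axis) for the 10423 tested genes, with dotted lines at the DEG thresholds. All 22 tested endothelial markers and 4 of the 16 astrocyte markers lie right of 0, against 61.6% of all tested genes. The 9 tested neuronal markers lie right of 0 mostly below the p threshold.

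**Figure D3:**
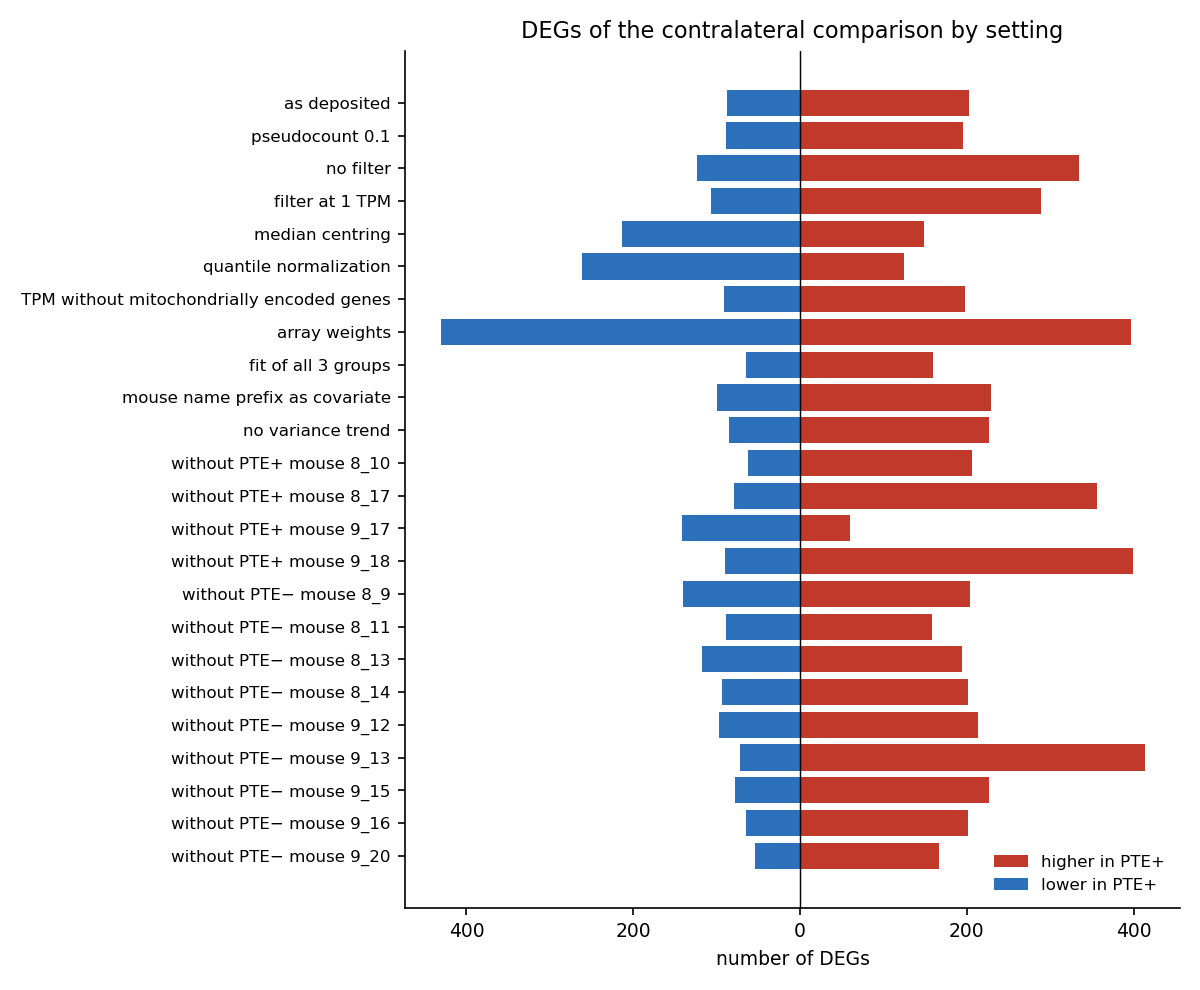
Number of DEGs higher (right) and lower (left) in PTE+ under each processing alternative and with each mouse left out. The split was 203 higher and 88 lower as deposited, 148 and 213 after median centring, and 60 and 141 without mouse 9_17.

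Endothelial and angiogenic transcripts were among the higher DEGs, and their calls rested on mouse 9_17. Blood vessels are lined by endothelial cells, whose TIE receptors (Tie1, and Tek, the angiopoietin receptor), endoglin (Eng, a co-receptor for TGF-beta ligands), PECAM-1 and CD34 mark them in the brain. Of the 24 endothelial markers 22 passed the filter, and 6 of these 22 were DEGs (27.3%, against 1.95% of all tested genes that were higher). All 22 had a log2 fold change above 0, against 61.6% of all tested genes, with a median of 0.70. The summed endothelial level was 2684, 1933, 3972 and 1171 TPM in the PTE+ libraries and had a median of 1510 TPM in PTE− libraries (802.1 to 2089) and 1375 TPM in sham (656.5 to 2724). Mice 8_10 and 9_17 lay above every PTE− library, whereas 8_17 and 9_18 lay within their range. In bulk RNA a larger number of endothelial cells and more RNA per endothelial cell cannot be told apart, nor either of these from expression in astrocytes.

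The promoters of 3 of these DEGs are shown, since ETS factors that bind the core GGAA are known for their place in endothelial transcription. Each is the 250 bases before the transcription start in RefSeq on GRCm38.p6, 5′ to 3′ on the strand of the gene, with GGAA or its complement TTCC in capitals. Tek has its window at chr4:94739039-94739288 on the plus strand, Eng at chr2:32646345-32646594 on the plus strand and Cd34 at chr1:194938571-194938820 on the plus strand. The RefSeq promoter table held no entry for Pecam1 or Sox17.
Tek: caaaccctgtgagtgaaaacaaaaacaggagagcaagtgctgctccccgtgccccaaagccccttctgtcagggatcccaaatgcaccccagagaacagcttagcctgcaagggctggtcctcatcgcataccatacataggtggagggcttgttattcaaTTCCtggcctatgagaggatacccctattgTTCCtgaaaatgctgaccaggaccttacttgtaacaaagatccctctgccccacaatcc
Eng: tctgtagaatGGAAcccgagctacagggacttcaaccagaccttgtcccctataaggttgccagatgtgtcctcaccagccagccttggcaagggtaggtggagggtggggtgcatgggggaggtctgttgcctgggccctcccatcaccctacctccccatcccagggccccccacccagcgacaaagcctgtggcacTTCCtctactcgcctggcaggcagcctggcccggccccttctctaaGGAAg
Cd34: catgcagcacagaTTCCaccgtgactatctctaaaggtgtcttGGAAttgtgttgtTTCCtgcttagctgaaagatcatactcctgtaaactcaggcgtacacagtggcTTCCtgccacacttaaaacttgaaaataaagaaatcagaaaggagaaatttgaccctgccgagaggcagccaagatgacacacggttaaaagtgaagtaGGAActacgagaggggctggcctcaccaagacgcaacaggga
The core occurred 2 times before Tek, 3 times before Eng and 5 times before Cd34. It is short and common. It was found on either strand in 93.4% of 27025 promoter windows, in 92.7% of windows of tested genes, in 88.5% of the 148 windows matched to higher DEGs and in 95.2% of the 62 windows matched to lower DEGs. The metal response element core TGCNCNC, searched on both strands likewise, was present in 43.8% of all windows, 52.9% of windows of tested genes, 59.5% of those of higher DEGs and 37.1% of those of lower DEGs. The AP-1 motif TGANTCA was present in 6.87% of all windows, 3.89% of windows of tested genes, 4.05% of those of higher DEGs and 3.23% of those of lower DEGs. The 3 motifs were counted separately, so their matches may share bases, and a match describes letters only.

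Tie1 (chr4:118471191-118490061) was present at 11.97, 11.3, 33.7 and 6.29 TPM in the PTE+ libraries and at 3.55 to 11.97 TPM (median 6.48) in PTE− libraries. Mouse 9_17 was far above all others and mouse 9_18 lay just below the PTE− median. The log2 fold change was 0.98 ± 0.34 (SE, limma p = 0.0107, adjusted p = 0.999), and the two-sided exact permutation p was 0.0238. Without mouse 9_17 it was 0.55 (p = 0.0771). Tek, at 19.9, 16.7, 49.4 and 8.15 TPM against 7.23 to 15.8 TPM, followed the same order of mice. Its log2 fold change was 0.80 ± 0.32 (exact p = 0.0434) and 0.36 without mouse 9_17. Eng was at 23.9, 21.2, 74.4 and 18.6 TPM in PTE+ libraries and between 9.57 and 24.2 TPM in PTE− libraries. All 4 PTE+ values exceeded the PTE− median of 15.3 TPM, and only that of 9_17 exceeded the PTE− range (log2 fold change 0.86 ± 0.30, exact p = 0.0126). Cd34 stood at 60.0, 46.1, 98.6 and 28.6 TPM against 16.7 to 50.8 TPM, and its log2 fold change was 0.83 ± 0.29 (exact p = 0.0266). Sox17, a transcription factor of arterial endothelium, was at 94.7, 63.4, 144.4 and 34.8 TPM against 20.01 to 70.3 TPM, and its log2 fold change was 0.93 ± 0.38 (p = 0.0264, exact permutation p = 0.0643). Pecam1, an adhesion molecule of endothelial junctions, had 0.78 ± 0.29 (exact p = 0.0182).

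None of the 6 endothelial DEGs had groups that did not overlap, and each lost its call without mouse 9_17, where their log2 fold changes were 0.36 to 0.62 (limma p from 0.0712 to 0.186). Tek and Sox17 lost the call without mouse 8_10 as well. Over the 22 markers the median log2 fold change was 0.64 after median centring, 0.29 without mouse 9_17, 0.53 among mice of prefix 8 and 0.89 among mice of prefix 9. Sham medians were 7.72 TPM for Tie1, 10.8 TPM for Tek and 31.8 TPM for Cd34, between the medians of the injured groups, while the sham median of Eng, 23.3 TPM, lay above the PTE+ median. For Sox17 the sham median of 43.7 TPM lay below the PTE− median of 48.6 TPM. The other 16 tested endothelial markers, among them Cldn5 (0.73), Kdr (0.77) and Flt1 (0.72), did not reach an unadjusted p of 0.05. Vwf, von Willebrand factor, was at 7.85, 7.42, 15.9 and 2.32 TPM against 2.4 to 9.78 TPM, and its log2 fold change of 0.54 ± 0.37 did not pass (exact permutation p = 0.21).

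**Figure D4:**
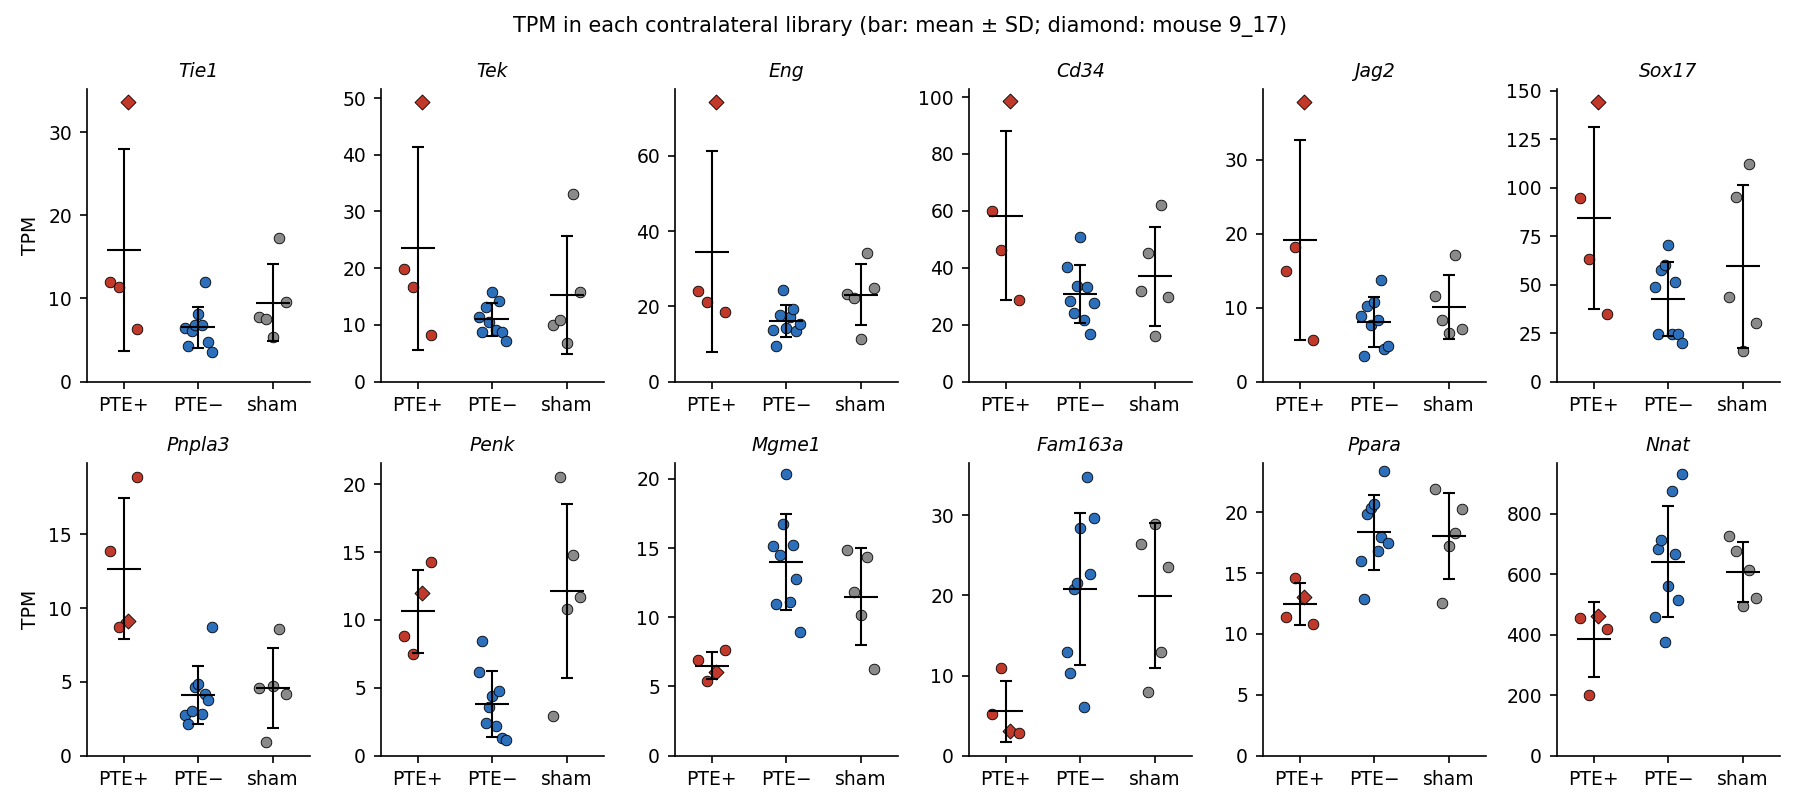
TPM of 12 genes in each contralateral library by group (1 point per mouse, bars at mean ± SD, diamond for mouse 9_17). The endothelial genes of the upper row are led by mouse 9_17, whereas the 4 PTE+ values of Pnpla3 lie above and those of Mgme1 below all 9 PTE− values.

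Among 30 genes of angiogenic signalling 21 were tested and 5 were DEGs, all higher (23.8%, against 1.95% of all tested genes). These were Tie1 and Tek, the Notch ligands Dll4 and Jag2, and Nos3, endothelial nitric oxide synthase. Dll4 passed the filter through PTE+ alone (PTE− mean 4.19 TPM). Jag2 was at 14.9, 18.2, 37.8 and 5.64 TPM against 3.41 to 13.8 TPM, so that 3 PTE+ mice lay above every PTE− mouse and 9_18 lay among them. Its log2 fold change was 0.99 ± 0.39 (exact permutation p = 0.0476). Without mouse 9_17 it was 0.59 (limma p = 0.139), and the call was also lost without 8_17. Dll4 went from 0.70 to 0.42 without mouse 9_17 and Nos3 from 0.66 to 0.29, and neither was then called. Dll4 did not pass after median centring either (0.64, limma p = 0.0559). Its call was also lost without either of PTE+ mice 8_10 and 8_17, and without any one of PTE− mice 8_9, 8_11, 8_13, 9_13, 9_15, 9_16 and 9_20. The growth factor genes themselves did not pass, with log2 fold changes of 0.36 for Vegfa, 0.13 for Vegfb and 0.49 for Vegfc. In the vessel wall list 1 of 14 tested genes was a DEG (7.14%, against 2.79% of all tested genes). This was Ltbp4, a matrix protein that binds latent TGF-beta, at 31.8, 32.7, 87.6 and 11.9 TPM against 9.02 to 29.9 TPM. Its log2 fold change was 0.99, and 0.52 without mouse 9_17 (limma p = 0.114). In the cell migration list 2 of 15 were DEGs (13.3%, against the same 2.79%), of which Sema3c passed the filter through PTE+ alone (PTE− mean 3.87 TPM). Sema3c, a secreted guidance cue, had a log2 fold change of 0.66 ± 0.29, and Nckap1, a subunit of the WAVE actin regulator, one of 0.45 ± 0.19. Both were highest in mouse 9_17 (15.8 and 126.5 TPM), and neither was called without it.

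DEGs were also found among markers of the meninges and of border macrophages. Slc47a1, a cation transporter counted here with meningeal markers, was at 4.06, 2.84, 12.4 and 1.91 TPM against 0 to 3.42 TPM (median 0.50), with a fitted change of 1.49 ± 0.48 on the log2 scale (exact permutation p = 0.0182). It fell below the filter when mouse 9_17 was left out, where the same contrast was 1.04. Mgp, matrix Gla protein, was at 158.8, 128.0, 180.9 and 94.4 TPM against 34 to 123.1 TPM, and 9_18 was again the lowest of the 4. Its log2 fold change of 0.77 was 0.64 without mouse 9_17 (limma p = 0.0582). These were the DEGs among 11 tested meningeal and fibroblast markers (18.2%, against 2.79% of all tested genes). Slc47a1 passed the filter through PTE+ alone (PTE− mean 1.16 TPM). Of the 11 markers 4 were above 0 and the median was −0.20. The summed level of the list overlapped between groups (1553 to 4061 TPM in PTE+, 1169 to 11500 TPM in PTE−). Of 8 markers of border macrophages, the resident macrophages of meninges and perivascular spaces, 3 were tested and Pf4 was a DEG (33.3% of a list this short). Its log2 fold change was 0.80 ± 0.32, and 0.71 without mouse 9_17 (limma p = 0.0674). The summed level of the border macrophage markers was 37.2, 32.4, 40.1 and 11.1 TPM against 7.29 to 22.3 TPM, with 3 PTE+ mice above every PTE− mouse and 9_18 inside the range. Microglial, mural, oligodendrocyte, oligodendrocyte precursor, ependymal and erythrocyte markers held no DEG, in short lists beside a share of 2.79% over all tested genes. Whether the vessel-associated transcripts contribute to the difference of other genes was not tested.

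Neuronal markers were spread widely in both groups. Of 12 neuronal markers 9 were tested, and all 9 had a log2 fold change above 0, against 61.6% of all tested genes. The list held 1 DEG (11.1%, against 2.79% of all tested genes), Stmn2, a regulator of microtubules in growing axons (0.64 ± 0.30). The summed level of the neuronal markers was 344.8, 157.6, 383.5 and 686.3 TPM in PTE+ and between 58.5 and 656.3 TPM in PTE−, so the groups overlapped over almost their whole range. The median log2 fold change of the list was 0.64 in all mice, −0.36 among mice of prefix 8 and 1.55 among mice of prefix 9, a difference that was not tested. Stmn2 was not called without mouse 9_17 (0.56, limma p = 0.122) or after median centring (0.57, limma p = 0.0959). Several of the largest positive DEGs are genes of neurons by background knowledge. Rims1, which organizes presynaptic release sites, was at 30.9, 13.8, 55.4 and 44.5 TPM against 2.30 to 39.6 TPM. Its log2 fold change of 1.32 was 0.37 within prefix 8 and 2.21 within prefix 9. Sptbn4, a spectrin of the axon initial segment, had 0.98 (0.53 and 1.41), and Pde2a, a phosphodiesterase of cyclic nucleotides, had 1.11 (0.27 and 1.92). Rims1, Sptbn4 and Pde2a lost the call after median centring (limma p = 0.06, 0.0634 and 0.0546), without any one of PTE+ mice 8_10, 9_17 and 9_18, and without any one of PTE− mice 8_13, 8_14, 9_12, 9_16 and 9_20. The contribution of neuronal RNA to these differences was not tested.

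Pnpla3 had the smallest limma p among the higher genes. It encodes a lipid droplet protein that acts on triglycerides. Its level was 13.9, 8.75, 9.14 and 18.9 TPM in the PTE+ libraries, 2.18 to 8.72 TPM (median 3.79) in PTE− libraries and 0.90 to 8.59 TPM (median 4.58) in sham libraries. All 4 PTE+ mice lay above all 9 PTE− mice, although 8_17 exceeded the highest PTE− mouse by little. The log2 fold change was 1.43 ± 0.28 (limma p = 0.000116, adjusted p = 0.603), with an exact permutation p of 0.0014, the smallest that groups of 4 and 9 can give. It was 1.57 within prefix 8 and 1.35 within prefix 9, and between 1.23 and 1.58 with each library left out. The gene lies at chr15:84167837-84187236 (GRCm38).

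Other genes of lipid droplets and sphingolipids moved in both directions. Of 18 tested, 3 were higher and 1 was lower, 22.2% of the list against 2.79% of all tested genes. Of these, Pnpla3 and Sgpp2 passed the filter through PTE+ alone (PTE− means 4.11 and 2.65 TPM). The median over the list was 0.03. Lipe, hormone-sensitive lipase, was at 14.6, 22.9, 24.5 and 14.9 TPM against 9.47 to 17.2 TPM (0.39 ± 0.18), and Sgpp2, a phosphatase of sphingosine 1-phosphate, was at 8.58, 5.61, 12.5 and 1.56 TPM against 1.61 to 4.96 TPM (0.95 ± 0.36). For Sgpp2 mouse 9_18 was below every PTE− mouse and the other 3 were above all of them. Both calls were lost without mouse 9_17. Plin3, a coat protein of lipid droplets, was the lower member, at 69.8, 78.5, 69.9 and 69.5 TPM against 75.4 to 120.8 TPM (−0.40 ± 0.13, exact permutation p = 0.00979), and it was called with any one of the 13 libraries left out.

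Ppara, the nuclear receptor that drives genes of fatty acid oxidation, was at 11.4, 14.6, 13.02 and 10.8 TPM in PTE+ and at 12.9 to 23.4 TPM (median 17.95) in PTE− libraries. Every PTE+ value was below the PTE− median, and 8_17 and 9_17 overlapped the lowest PTE− mouse. The log2 fold change was −0.52 ± 0.15 (limma p = 0.00398, exact permutation p = 0.00559), and −0.58 after median centring. Among 20 genes of fatty acid oxidation and PPAR targets, all tested, Ppara was the DEG (5.0%, against 2.79% of all tested genes), and the median of the list was −0.10. Nr1h2, the oxysterol receptor LXR-beta, was at 144.3, 142.3, 137.3 and 140.5 TPM against 82.1 to 135.7 TPM, all 4 above all 9 (0.33 ± 0.12, exact permutation p = 0.00839).

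Penk, the precursor of the enkephalin opioid peptides, was at 8.81, 7.48, 11.99 and 14.3 TPM in PTE+ libraries and at 1.13 to 8.45 TPM (median 3.61) in PTE− libraries. Of the PTE+ mice 8_10, 9_17 and 9_18 lay above every PTE− mouse, and 8_17 lay below the highest of them. The log2 fold change was 1.40 ± 0.36 (limma p = 0.00144, exact permutation p = 0.00699), and it was 0.68 within prefix 8 and 2.03 within prefix 9. Sham libraries had 2.90 to 20.6 TPM, with a median of 11.7 TPM that is nearer to PTE+ than to PTE−. Penk was the DEG among 10 tested genes of neuropeptides and their processing, whose median log2 fold change was 0.43 in all mice, −0.31 within prefix 8 and 1.25 within prefix 9. It passed the filter through PTE+ alone (PTE− mean 3.81 TPM). Pam, the enzyme that amidates neuropeptides, was at 14.8, 5.88, 44.3 and 15.6 TPM against 5.59 to 16.5 TPM. Its log2 fold change of 0.68 ± 0.39 did not pass (p = 0.0988, exact permutation p = 0.152) and was 0.21 without mouse 9_17.

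Gtpbp6, a GTP-binding protein, was at 70.8, 74.9, 70.7 and 70.6 TPM against 44.6 to 60.7 TPM (0.44 ± 0.11), and Rps6ka4, the kinase MSK2, was at 41.1, 40.2, 50.7 and 43.6 TPM against 27.9 to 39.6 TPM (0.45 ± 0.12). Scube1, a secreted protein with EGF-like domains, was at 8.94, 14.5, 14.97 and 11.1 TPM against 3.86 to 8.53 TPM (0.78 ± 0.22). The groups of these 3 genes did not overlap. Lingo1, a transmembrane protein known as a brake on myelination, was at 34.9, 31.7, 36.2 and 45.3 TPM against 16.97 to 41.2 TPM (0.70 ± 0.19, exact permutation p = 0.00559), and a single PTE− mouse, 9_13, reached into the PTE+ values. Rps18, a protein of the small ribosomal subunit, was at 175.2, 107.8, 130.4 and 205.2 TPM against 49.5 to 153.3 TPM (0.88 ± 0.26). Of 77 tested cytosolic ribosomal protein genes, which have many pseudogene copies that can take reads, Rps18 and Rpl10 were DEGs (Rpl10 not after median centring, limma p = 0.161, and not without mouse 9_17), 2.60% of the list against 2.79% of all genes, and the median was −0.21 within prefix 8 and 0.50 within prefix 9. Among 19 tested genes of Notch and hedgehog signalling, Dll4, Jag2 and Smo, the hedgehog transducer, were higher and Hes1, a Notch target, was lower (−0.40 ± 0.17). They were 21.1% of the list, against 2.79% of all tested genes. None of these 4 calls held without mouse 9_17.

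Mgme1 had the smallest limma p among the lower genes. It encodes an exonuclease that maintains the mitochondrial genome. Its level was 6.91, 5.38, 6.06 and 7.62 TPM in the PTE+ libraries, 8.95 to 20.4 TPM (median 14.5) in PTE− libraries and 6.26 to 14.9 TPM (median 11.8) in sham libraries. All 4 PTE+ mice lay below all 9 PTE− mice. The log2 fold change was −0.97 ± 0.19 (limma p = 0.000115, adjusted p = 0.603, exact permutation p = 0.0014, the smallest possible), −1.09 within prefix 8 and −0.86 within prefix 9. The gene lies at chr2:144270663-144281227. None of the 13 mitochondrially encoded genes and none of 36 subunits of complex I was a DEG, against 2.79% of all tested genes. Their medians were −0.06 and 0.03.

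Fam163a was at 5.26, 10.9, 3.12 and 2.79 TPM against 6.11 to 34.8 TPM (median 21.6), and its log2 fold change was −1.74 ± 0.40 (limma p = 0.000497, exact permutation p = 0.0042). Mouse 8_17 overlapped the lower PTE− mice, and the contrast was −0.95 within prefix 8 and −2.49 within prefix 9. Cntnap2, a cell adhesion protein of the neurexin family, was at 5.23, 2.93, 6.01 and 8.79 TPM against 8.30 to 13.9 TPM (−0.86 ± 0.21, exact permutation p = 0.0028), with 9_18 inside the PTE− range. Nnat, neuronatin, was at 454.7, 201.3, 463.4 and 419.95 TPM against 377.6 to 930.5 TPM (−0.76 ± 0.25), and its call was lost without mouse 8_17, the lowest. Cd38, which consumes NAD, was at 4.94, 7.88, 7.30 and 6.38 TPM against 6.52 to 14.6 TPM (−0.63 ± 0.20), below the sham range of 9.75 to 19.2 TPM in each PTE+ mouse. Marc2, a mitochondrial outer membrane reductase, was at 268.8, 322.0, 243.5 and 305.3 TPM against 329.4 to 430.5 TPM, without overlap (−0.42 ± 0.11). Serhl, Manbal, Tvp23b and Pccb, a subunit of propionyl-CoA carboxylase, were likewise below every PTE− library, with log2 fold changes of −0.49, −0.39, −0.33 and −0.30.

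Groups that did not overlap were found for 18 of 10423 tested genes (0.173%), and 16 of these were DEGs. The higher ones were Pnpla3, Scube1, Ica1, Ccnyl1, Rps6ka4, Gtpbp6, Pusl1, Nr1h2, Ctdnep1 and Btbd6, and the lower ones Mgme1, Serhl, Marc2, Manbal, Tvp23b and Pccb. No member of the cell type marker lists was among them. Apart from Pnpla3 and Mgme1 their log2 fold changes lay between −0.49 and 0.78. After median centring Ctdnep1 (limma p = 0.0804) and Btbd6 (limma p = 0.0511) were not DEGs. Ccnyl1 and Pccb lost the call without mouse 9_17 and Pusl1 without 8_17. Ctdnep1 lost it without any one of mice 8_10, 8_17, 9_17, 9_18, 8_11 and 9_12. Ica1 passed the filter through PTE+ alone (PTE− mean 3.22 TPM). Whether 18 genes without overlap are more than shuffled group labels would give was not tested. The exact permutation p values, including the smallest possible ones, were not adjusted for the number of genes tested.

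Some of the most negative fold changes came from unnamed transcripts that were listed at 0 in many libraries. Gm17571 was listed at 0 in all 4 PTE+ libraries and at 0 to 483.0 TPM (median 49.3) in PTE− libraries, and since PTE− libraries included values of 0 the groups overlapped (a DEG in limma, exact permutation p = 0.139). Gm10217 was at 0, 0, 0 and 4.29 TPM against 0 to 73.3 TPM (median 14.3), a lower DEG with an exact permutation p of 0.00839. Gm20390 was at 0, 0.56, 6.35 and 3.65 TPM against 0 to 87.7 TPM (median 19.4, exact permutation p = 0.0657). Gm10801, which was no DEG, reached 656.4 TPM in a PTE− library whose group median was 0.93 TPM. No depth is attached to TPM, so a value of 0 gives no limit here.

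Several lists of astrocyte and other functions held no DEG. Over all tested genes the share of DEGs was 2.79%, so short lists can hold none without differing from it. None of 20 genes of glutamate, GABA and potassium clearance was a DEG (median 0.07). Glul, glutamine synthetase, was at 2279, 2561, 2181 and 2247 TPM against 2080 to 3301 TPM, and Slc1a3, the transporter GLAST, at 1838, 2185, 2392 and 1557 TPM against 1683 to 2991 TPM. All Glul values lay within the PTE− range, and for Slc1a3 mouse 9_18 lay below it and the other 3 within it. None of 11 tested reactive astrocyte genes was a DEG, with Gfap at 155.7, 138.8, 339.9 and 339.5 TPM against 116.7 to 559.8 TPM. None of the 3 metallothioneins, 15 immediate early genes, 15 heat shock chaperones, 20 genes of glutathione and NRF2, 20 genes of lysosomes and cystatins, 7 chemokines and cytokines, 19 interferon and MHC class I genes, 17 clock genes, 11 glucocorticoid response genes, 11 perineuronal matrix genes, 30 splicing factors or 18 astrocyte transcription factors was a DEG. Sox9, a transcription factor of astrocyte identity, was at 122.7, 125.2, 168.3 and 99.7 TPM against 98.1 to 237.8 TPM (−0.43 ± 0.22, p = 0.0758, exact permutation p = 0.105), and passed the p threshold after median centring (−0.49) and without mouse 9_17 (−0.56). Fos was at 47.6, 94.2, 26.2 and 21.3 TPM against 17.7 to 830.7 TPM, and Cst3, cystatin C, at 22279, 23178, 16757 and 26478 TPM against 21910 to 30370 TPM. Neither passed (exact permutation p = 0.306 and 0.0503).

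Of 15 genes that the study names for this comparison 9 were DEGs: Slc47a1, Cd34, Sox17, Sgpp2, Pnpla3 and Penk were higher, and Ppara, Gm10217 and Gm20390 were lower. Of 17 genes that it names for both hemispheres 5 were DEGs in the contralateral libraries, Gdf10 and Nckap1 higher and Nnat, Ttc38 and Tor1aip1 lower. Tor1aip1 (−0.56 ± 0.25, exact permutation p = 0.0755) lost the call without any one of mice 8_10, 9_17, 9_18, 8_13, 8_14, 9_12, 9_16 and 9_20. Gnptg, another of the 17, passed the p threshold (−0.26 ± 0.09, limma p = 0.0124, exact permutation p = 0.0042). Its fold of 1.198 missed the threshold of 1.2, and after median centring it was −0.32 (limma p = 0.012). Id4 (−0.37, limma p = 0.0339) and Macrod1 (−0.36, limma p = 0.0219) also passed both thresholds after median centring, but not as deposited. Both lists were chosen on these samples and are not independent evidence of direction. Gdf10, a secreted ligand of the TGF-beta family, was at 41.8, 64.5, 41.5 and 28.4 TPM against 23.0 to 42.1 TPM (0.43 ± 0.18), and the call was lost without 8_10, 8_17, 9_17 or either of the PTE− mice 8_13 and 9_13, and after median centring (0.37, limma p = 0.0849) or quantile normalization. Ttc38 was at 15.5, 13.9, 7.63 and 8.07 TPM against 12.3 to 23.0 TPM (−0.59 ± 0.20), and was −0.08 within prefix 8 and −1.09 within prefix 9.

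The same contrast was set beside the injured hemisphere, where the 4 PTE+ libraries came from mice 8_10, 9_17, 9_18 and 9_19 and the PTE− group held 10 mice. One ipsilateral PTE− library, from mouse 9_14, stood apart: its median gene was at 0 TPM, and it listed Pnpla3, Penk, Mgme1, Tie1 and Jag2 at 0. With it 60 of 10473 genes were ipsilateral DEGs (0.573%), and without it 197 of 10440 were (1.89%), so ipsilateral values are given both ways, the second without mouse 9_14.

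Pnpla3 was at 8.02, 12.01, 11.3 and 4.42 TPM in the ipsilateral PTE+ libraries. The other 9 PTE− libraries had 2.10 to 7.76 TPM (median 3.34), so 3 of 4 PTE+ mice lay above them. The ipsilateral log2 fold change was 1.25 ± 0.46 and 1.03 ± 0.30, against 1.43 in the contralateral cortex. Mgme1 had −0.30 ± 0.60 (p = 0.626) and −0.69 ± 0.19 (p = 0.00225), and Fam163a −0.98 ± 0.71 and −1.36 ± 0.44, so that both were lower in ipsilateral PTE+ astrocytes once the outlying library was left out. Jag2 had 1.06 ± 0.45 and 0.79 ± 0.18. Nnat (−0.53 and −0.54), Ttc38 (−0.65 and −0.59) and Pam (1.19 and 1.198) hardly depended on mouse 9_14. Penk had 0.50 ± 0.62 and 0.18 ± 0.39, Tie1 0.71 ± 0.48 and 0.46 ± 0.28, and Ppara 0.27 ± 0.58 and −0.09 ± 0.21, and none of these 3 passed in the ipsilateral cortex.

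Whether the PTE+ effect differed between the hemispheres was tested directly. Such a difference was called for 9 of 10681 genes (0.0843%), and for 325 genes (3.04%) with the mouse as a replicate block over the 12 mice with both hemispheres, 3 of them PTE+. No gene passed an adjusted p of 0.05 in either limma fit. Mouse 9_14 has no contralateral library analysed here and gives no value to the blocked differences. In the blocked fit Penk differed by 1.53 ± 0.50 (p = 0.00804), Slc47a1 by 2.18 ± 0.56 (p = 0.00146), Ccn3, a secreted matricellular protein, by 1.94 ± 0.61 (p = 0.0062) and Lingo1 by 0.69 ± 0.22 (p = 0.00721). In these 4 genes the PTE+ effect was the larger in the contralateral cortex in that fit, and Marc2 differed by −0.34 ± 0.13 (p = 0.0193). Penk, Slc47a1, Ccn3, Lingo1 and Marc2 were named for their contralateral results, and the hemisphere difference uses the same contralateral values. A larger contralateral effect in them is therefore favoured by how they were chosen. None of these genes passed in limma without the block. There the difference was 0.90 for Penk (p = 0.24), 1.51 for Slc47a1 (p = 0.0943) and 0.93 for Ccn3 (p = 0.344). It was 0.31 for Lingo1 (p = 0.443) and −0.33 for Marc2 (p = 0.0667). For Pnpla3, Mgme1, Cntnap2, Nnat and Tie1 the blocked difference did not pass (p = 0.465, 0.702, 0.772, 0.691 and 0.403), which does not show that the hemispheres behaved alike.

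**Figure D5:**
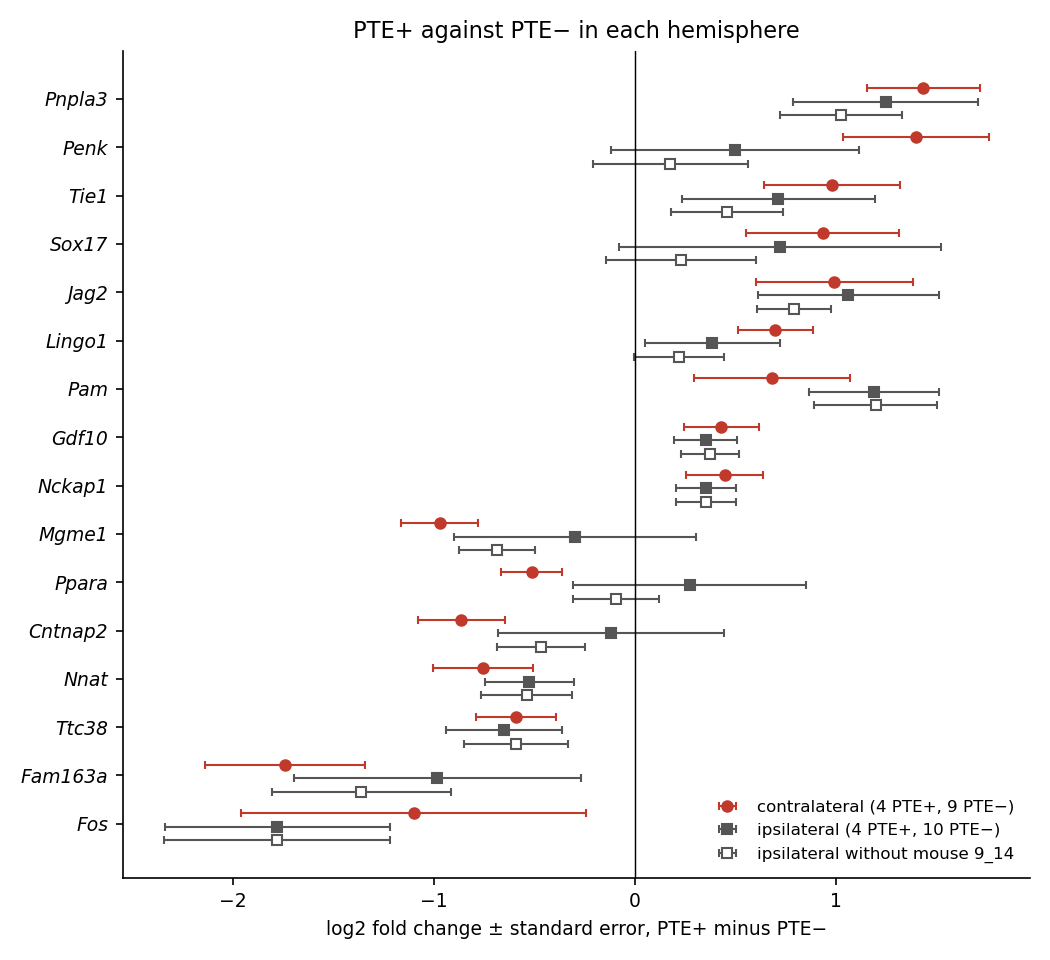
Limma log2 fold change ± standard error, PTE+ minus PTE−, of 16 genes in the contralateral cortex (circles, 4 and 9 mice) and in the ipsilateral cortex with all libraries (filled squares, 4 and 10 mice) and without mouse 9_14 (open squares). Pnpla3 is at 1.43, 1.25 and 1.03, Mgme1 at −0.97, −0.30 and −0.69, and Penk at 1.40, 0.50 and 0.18.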

How the data were processed

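RNA of ACSA-2 selected cortical astrocytes was made into libraries by the authors with SMART-Seq v4, a kit that does not mark strand, so overlapping antisense genes cannot be told apart. The authors trimmed reads with Trim Galore 0.6.4, quantified them on mm10 with RSEM 1.2.28 and Bowtie2 2.4.1, ran DESeq2 1.36.0 on raw counts, and deposited TPM per Ensembl gene in 1 table per hemisphere. The labels hold 5 PTE+ mice, of which 8_17 has no ipsilateral and 9_19 no contralateral library analysed here. The annotation release is not given in the sources used here. Symbols and positions came from GENCODE vM21 on GRCm38 (21856 identifiers with a symbol, 119 without) and promoters from RefSeq on GRCm38.p6. TPM keep no depth, so depth per library is unknown and no count test was run.

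Groups were taken from the sample labels, and each library is 1 mouse. log2(TPM + 1) was compared with limma 3.58.1 in R 4.3.3, two-sided, with a variance trend, for genes that averaged more than 5 TPM in PTE+ or in PTE−. Fold changes are differences between group means on that scale, which understates change of low genes. ± after a fold change is the standard error. Single genes were also tested by exact permutation over every assignment of 4 of the 13 libraries. Lists are described by counts and medians with no set test. The members and lists were chosen with earlier results of these data known. Genes named were those the study names, 15 DEGs in each direction by size of the fold change, the 10 DEGs with the smallest p, up to 4 DEGs per list and direction (or its 2 most abundant genes), and DEGs whose groups do not overlap. Other list members and DEGs mentioned were chosen after their values were seen.

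Hemispheres were compared by an interaction term over 27 libraries. The mouse name pairs hemispheres of the same animal: deviations from group means of the 12 such mice correlated across 10681 genes with a median r of 0.38 (0.0341 to 0.618, above 0.1 in 11), so the fit with the mouse as a block is given too. Alternatives were a pseudocount of 0.1, other filters, median centring, quantile normalization, TPM without mitochondrial genes, array weights, all 3 groups in the fit, the prefix as a covariate, no trend, other fold thresholds and each library left out. Ipsilateral fits without mouse 9_14 were added after seeing the data. On simulated data for this comparison, with 10423 genes, 76.1% of genes changed 1.5-fold and 92.5% of genes changed 2-fold were called.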

Additional observations from a re-analysis of the deposited data

Results flagged for a closer look

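Among 154 groups of 4 to 10 libraries tested with Dixon's criterion, 13 held a library far from the others, and chance gives about 1 in 20. In PTE+ these were mouse 9_18 for the summed border macrophage markers (11.13 TPM, the other 3 at 32.4 to 40.1 TPM) and for Gm10217 (4.29 TPM, the others at 0), mouse 8_17 for Nnat (201.3 TPM), Gtpbp6 (74.9 TPM), Stmn2 (14.6 TPM) and Plin3 (78.5 TPM), and mouse 9_17 for Sec62 (43.2 TPM). In PTE− they were mouse 9_20 for the border macrophage sum (7.29 TPM), 9_13 for Lingo1 (41.2 TPM), 8_11 for Pusl1 (39.3 TPM), 9_12 for Ctdnep1 (20.3 TPM), and 8_9 for Rpl10 (113.7 TPM) and for Gm10217, where 8_9 was listed at 0.

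The PTE+ effect differed between hemispheres at an unadjusted limma p under 0.05, contralateral minus ipsilateral, for 17 of 125 named genes, and none passed an adjusted p. Over all tested genes that p was passed by 0.0843% without the block and 3.05% with it. The 17 pool both fits, and 66 of the 125 named genes were contralateral DEGs. Their number therefore cannot be read as an excess over these shares. Without a block the genes called were Mgp (0.85) and Rpl10 (0.42). Rpl10 passed with the mouse as a block too (0.49). With the block, differences were also positive for Slc47a1 (2.18), Ccn3 (1.94), Penk (1.53), Vstm2b (1.24), Tmem130 (1.10), Ica1 (0.84), Lingo1 (0.69), Rps18 (0.51), Ctdnep1 (0.44), Nr1h2 (0.39) and Btbd6 (0.31). They were negative for Gm10801 (−2.59), Cnp (−0.37), Tsc22d3 (−0.36) and Marc2 (−0.34).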

How the results depend on the processing

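The count of 291 DEGs was within 1.5 times that value under 9 of the processing alternatives, from 224 in a fit of all 3 groups to 396 with a filter at 1 TPM. It was 458 with no filter, 828 with array weights and 118 with a fold of 1.5. Leaving out 1 library gave 201 to 489 DEGs, the extremes being PTE+ mice 9_17 and 9_18, and 485 without PTE− mouse 9_13. No gene passed an adjusted p of 0.05 under any of these alternatives. Median centring with mouse 9_17 left out, added after seeing the data, gave 240 DEGs with 35.4% higher in PTE+. Of 66 named DEGs 33 lost the call without mouse 9_17, 23 without 8_10, 16 without 9_18, 15 without 8_17 and 12 after median centring, and none changed sign under the alternatives in which it could be tested; the cause was not tested.

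The 9 genes that differed between hemispheres became 325 with the replicate block, 366 with the replicate block and median centring together, 16 with median centring, 8 to 31 with a PTE+ mouse left out, and 49 without the ipsilateral library of mouse 9_14 (the 366 and 49 were added after seeing the data). TPM carry no depth, so the precision of low values is unknown.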
